A study of Mus musculus with 6 samples.

Results

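The CYP4 enzymes are cytochrome P450s that place a hydroxyl group on the last carbon of a fatty acid. Transcripts of 10 of these genes were followed in mouse liver, 6 of the Cyp4a family (Cyp4a10, Cyp4a12a, Cyp4a12b, Cyp4a14, Cyp4a31 and Cyp4a32), 3 of the Cyp4f family (Cyp4f13, Cyp4f14 and Cyp4f15) and Cyp4v3. They were chosen by name from the 55385 genes of the count table, with earlier results of these data known. Other CYP4 genes counted in these livers, such as Cyp4b1, were not among them. All 10 passed the filter on low counts that left 14454 genes for testing. RNA-seq of polyadenylated liver RNA covered 3 sham-operated and 3 vertical sleeve gastrectomy (VSG) male C57BL/6 mice, 1 mouse per library. VSG takes away the larger part of the stomach and leaves a narrow sleeve. All 6 mice were put on a high-fat diet (HFD) at 6 to 8 weeks of age, as the labels are read here, for 10 weeks before the operation and stayed on it for a further 12 weeks, so no lean or unoperated liver was compared. Libraries are named by the labels' sample numbers, sham 1, 2 and 3 and VSG 4, 5 and 6. The sources used here do not say how long the mice had gone without food at collection.

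Omega hydroxylation is a side route of fatty acid breakdown. The hydroxylated acid is oxidised to a dicarboxylic acid, which is then shortened in peroxisomes. In mouse liver Cyp4a10 and Cyp4a14 are among the best known targets of PPARα, the nuclear receptor that senses fatty acids, and they are induced by fasting and by PPARα agonists. Cyp4a12a is the arachidonic acid omega-hydroxylase of male mice and is driven by androgens, whereas enzymes of the Cyp4f family, such as Cyp4f14, inactivate leukotriene B4 and related lipid mediators. Cyp4v3 is the counterpart of human CYP4V2, a fatty acid hydroxylase mutated in a crystalline retinal dystrophy.

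The coding sequences hold the sign of the shared chemistry, a stretch in which a cysteine binds the iron of the heme. It is shown here because it is what joins the 10 genes as P450s and because it shows how close the copies are. The letters are from GENCODE M21 transcripts (GRCm38, the assembly of mm10), 5′ to 3′ on the coding strand, and the capitals mark the codon of the heme-binding cysteine. In all 10 genes the stretch runs across an exon junction, so the positions given here span an intron. On the plus strand it lies at chr4:115529502-115532543 in Cyp4a10, chr4:115574950-115577948 in Cyp4a31, chr4:115614880-115621446 in Cyp4a32, chr4:115328986-115331846 in Cyp4a12a, chr4:115435240-115438069 in Cyp4a12b and chr17:32702398-32702801 in Cyp4f15. On the minus strand it lies at chr4:115487299-115489805 in Cyp4a14, chr17:32924942-32925340 in Cyp4f13, chr17:32905666-32906065 in Cyp4f14 and chr8:45307107-45308407 in Cyp4v3.
Cyp4a10: ttctcaggaggagccaggaacTGCattggg
Cyp4a31: ttctcaggaggagccaggaacTGCattggg
Cyp4a32: ttctcaggaggagccaggaacTGCattggg
Cyp4a14: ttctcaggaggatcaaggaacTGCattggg
Cyp4a12a: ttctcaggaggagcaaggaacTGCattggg
Cyp4a12b: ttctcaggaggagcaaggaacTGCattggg
Cyp4f13: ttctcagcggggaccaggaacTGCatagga
Cyp4f14: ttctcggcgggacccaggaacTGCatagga
Cyp4f15: ttctccgctgggcccaggaacTGCatagga
Cyp4v3: ttttctgctggacctcgaaacTGTattggt
The signature, searched as a pattern of in-frame codons in the coding letters, was found in 10 of 10 members, in 92 of 100 Cyp genes (92%) and in 97 of 21895 coding sequences (0.443%). Cyp4a10, Cyp4a31 and Cyp4a32 have the same 30 letters there, and so do Cyp4a12a and Cyp4a12b. Cyp4v3 alone among the 10 uses a different cysteine codon.

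The members fall into 3 places in the genome (GRCm38). The 6 Cyp4a genes lie together on chromosome 4 between 115299046 and 115621602, the 3 Cyp4f genes lie on chromosome 17 between 32685627 and 32947402, and Cyp4v3 lies on chromosome 8 between 45304944 and 45333216. Over the aligned coding bases Cyp4a12a and Cyp4a12b were 98.5% identical, Cyp4a10 was 97.2% identical to Cyp4a32 and 96.6% identical to Cyp4a31, and Cyp4a14 was 75.2% identical to Cyp4a10. A read must cover a differing base to tell copies apart. Of all stretches of 50 bases in its transcripts, Cyp4a12a shared 48.9%, Cyp4a12b 49.4%, Cyp4a32 43.8%, Cyp4a10 29.8% and Cyp4a31 19% with another Cyp4 gene or pseudogene. Cyp4a14 shared 0.235%, the Cyp4f genes 1.11 to 2.39% and Cyp4v3 0%. How reads that match more than 1 gene were counted is not given in the sources used here, so the values of the 5 genes with a close copy are uncertain in how they are divided, while Cyp4a14, the Cyp4f genes and Cyp4v3 are not affected to that degree.

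The letters that part the copies are shown for 1 coding window of 120 bases each, the window within a single exon with the most differences. Capitals mark the positions at which the copies differ. For Cyp4a12a (chr4:115326642-115326761) and Cyp4a12b (chr4:115432895-115433014), both on the plus strand in exon 6, 8 positions differ.
Cyp4a12a: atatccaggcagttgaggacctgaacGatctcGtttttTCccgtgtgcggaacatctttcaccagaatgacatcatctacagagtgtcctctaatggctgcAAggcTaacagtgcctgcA
Cyp4a12b: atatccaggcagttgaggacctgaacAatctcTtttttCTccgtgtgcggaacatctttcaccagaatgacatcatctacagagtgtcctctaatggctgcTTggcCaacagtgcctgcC
For Cyp4a10 (chr4:115519630-115519749), Cyp4a31 (chr4:115565010-115565129) and Cyp4a32 (chr4:115602260-115602379), on the plus strand in exon 2, 13 positions differ.
Cyp4a10: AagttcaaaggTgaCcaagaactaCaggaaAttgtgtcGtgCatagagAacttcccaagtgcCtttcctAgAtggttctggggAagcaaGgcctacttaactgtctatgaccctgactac
Cyp4a31: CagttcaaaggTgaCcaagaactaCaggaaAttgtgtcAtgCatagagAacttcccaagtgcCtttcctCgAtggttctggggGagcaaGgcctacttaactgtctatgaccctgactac
Cyp4a32: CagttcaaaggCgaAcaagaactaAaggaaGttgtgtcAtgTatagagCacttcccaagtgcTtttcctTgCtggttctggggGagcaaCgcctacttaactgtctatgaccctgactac
These are the windows richest in differences. Over the whole coding sequence 23 bases differ between Cyp4a12a and Cyp4a12b, 43 between Cyp4a10 and Cyp4a32 and 52 between Cyp4a10 and Cyp4a31.

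The 6 libraries held 22804397 to 24191778 counts, of which the 10 members took 0.172, 0.419 and 0.245% in sham and 0.0493, 0.299 and 0.0997% in VSG livers. Mitochondrially encoded genes took 5.79, 6.58 and 5.59% of the counts in sham and 4.14, 4.94 and 5.01% in VSG livers, so that the groups did not overlap and VSG 4 was lowest, and the part of this difference in the Cyp4 values was not tested. Hepatocyte markers were abundant in every library (7 genes with a summed 72613, 108489 and 74324 CPM in sham and 56636, 85460.5 and 85347 CPM in VSG livers) in keeping with the labelled tissue, and 0 of 7 passed the test by edgeR, with 2 at an unadjusted p under 0.05 and 2 called by DESeq2. CPM is the count of a gene scaled to the size of its library, here with TMM factors. On the FPKM scale, which also divides by gene length, Cyp4a14 had the highest mean level of the 10 in both groups, 498 ± 402 FPKM in sham and 216 ± 294 FPKM in VSG livers (SD, n = 3). Cyp4a10 came next at 319 ± 168 FPKM in sham and 155 ± 180.0 FPKM in VSG livers (SD, n = 3), followed by Cyp4v3 at 112 ± 15.5 FPKM in sham and 83.1 ± 18.2 FPKM in VSG livers (SD, n = 3). Cyp4f15, at mean levels of 54.3 and 46.2 FPKM, and Cyp4f14, at 37.3 and 38.6 FPKM, stood in the middle. Cyp4a12b had the lowest mean level, 1.55 FPKM in sham and 5.34 FPKM in VSG livers. The mean levels of the top genes, Cyp4a14 and Cyp4a10, differed by less than the SD of Cyp4a14 in each group. In VSG livers the order of these means rested on VSG 5. In VSG 4 and VSG 6 Cyp4v3 was above both, at 63.5 and 99.5 FPKM. There Cyp4a10 was at 15.3 and 91.2 FPKM and Cyp4a14 at 12.9 and 81.9 FPKM.

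VSG against sham asks which transcripts differ in the liver after the operation. None of the 10 members passed the test (0 of 10 at an edgeR adjusted p under 0.05), where 14.7% of all tested genes did. At an unadjusted p under 0.05 the count by edgeR was again 0 of 10, against 33.9% of all tested genes. DESeq2 and limma-voom, and limma on log2(FPKM + 1), also called 0 of 10, and DESeq2 had 2 members with an unadjusted p under 0.05. The CPM values of the sham and VSG libraries overlapped in all 10 members, while 39.7% of all tested genes had groups that did not overlap. The median log2 fold change of the 10 was -0.098, against 0.028 over all tested genes, with 5 positive and 5 negative values. In whole tissue a lower level can mean fewer cells of a type or less RNA per cell, and these cannot be told apart.

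**Figure D1:**
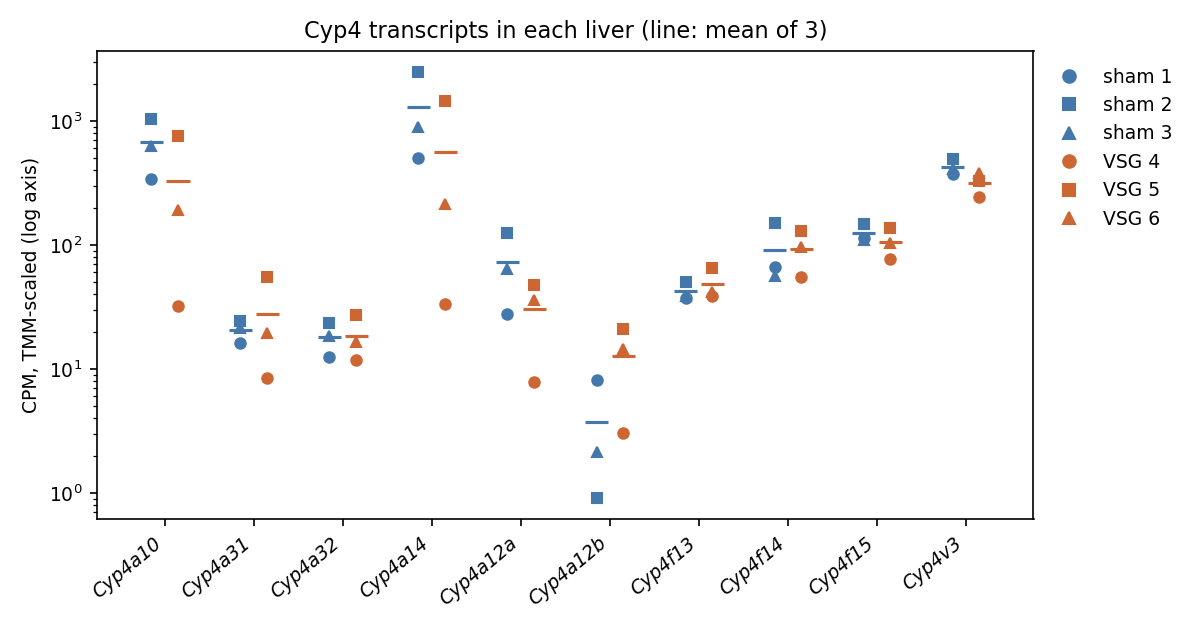
CPM of the 10 Cyp4 members in each of the 6 livers on a log axis, with sham in blue, VSG in orange, a marker shape per library and a line at the mean of 3. Sham and VSG libraries overlap for every member, and VSG 4 lies at 33.5 CPM and VSG 5 at 1438 CPM for Cyp4a14.

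Cyp4a14 and Cyp4a10, the PPARα-responsive hydroxylases, had lower mean levels after VSG but varied more among animals than almost any other transcript. Cyp4a14 was at 507, 2482 and 896 CPM in sham livers 1, 2 and 3 and at 33.5, 1438 and 213 CPM in VSG livers 4, 5 and 6. VSG 4 and VSG 6 lay below all sham livers, but VSG 5 lay above sham 1 and sham 3, so the groups overlapped. For Cyp4a14 the log2 fold change was -1.21 (SE 1.22, 95% interval -4.10 to 1.69, edgeR adjusted p = 0.512). The highest library was 4.90 times the lowest in sham and 43.0 times in VSG livers. Its SD of log2 CPM within groups was 2.09, at percentile 99.92 of all tested genes, whose median was 0.22.

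Cyp4a10 was at 339.7, 1047 and 630.1 CPM in sham and at 32.2, 755 and 192 CPM in VSG livers. The order was that of Cyp4a14 in both groups, sham 1 below 3 below 2 and VSG 4 below 6 below 5, and VSG 5 again stood among the sham livers. For Cyp4a10 the log2 fold change was -1.04 (SE 0.99, 95% interval -3.39 to 1.31, edgeR adjusted p = 0.483). The VSG libraries spanned 23.5 times and the sham libraries 3.08 times. The value of both genes rested on single libraries. Without VSG 5 the log2 fold change was -3.40 for Cyp4a14 (adjusted p = 0.0695) and -2.59 for Cyp4a10 (adjusted p = 0.0809), and without sham 2 it was -0.32 and -0.57. Without VSG 4 the values were -0.65 and -0.50. Averaged on the log scale by limma-voom, the values lay further from 0, at -2.31 for Cyp4a14 and -1.89 for Cyp4a10, also without a call.

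The counts of Cyp4a14 and Cyp4a10 moved together but not in a fixed ratio. Cyp4a14 held 59.9%, 70.3% and 58.7% of their joint counts in sham and 51.0%, 65.6% and 52.6% in VSG livers. The share was highest in the libraries with the most counts of both genes, sham 2 and VSG 5. The means were 63.0% ± 6.40 in sham and 56.4% ± 8.00 in VSG livers (SD, n = 3), which overlapped (exact two-sided permutation p = 0.3, where 0.1 is the smallest that 3 against 3 allows).

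Cyp4a31 and Cyp4a32, the close copies of Cyp4a10, had far lower levels per length and did not pass the test. Cyp4a31 was at 16.1, 24.2 and 21.4 CPM in sham and at 8.51, 54.9 and 19.5 CPM in VSG livers. Its VSG libraries lay below, above and within the sham range, and the log2 fold change was 0.43 (SE 0.60, 95% interval -1.01 to 1.86, edgeR adjusted p = 0.641). Cyp4a32 was at 12.4, 23.4 and 18.5 CPM in sham and at 11.9, 27.3 and 16.5 CPM in VSG livers, again on both sides of the sham range. For Cyp4a32 the log2 fold change was 0.037 (SE 0.35, 95% interval -0.79 to 0.87, edgeR adjusted p = 0.949), and the sign turned with total counts as the scaling (-0.066) and on the log2(FPKM + 1) scale (-0.12). The sign of Cyp4a31 turned on the log2(FPKM + 1) scale (-0.043) and without VSG 5 (-0.57).

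Set against Cyp4a10, both minor copies made up more of the counts in the livers of a group where Cyp4a10 was lower. Such a share rises whenever Cyp4a10 falls by more than the minor copy, so it is no measure of the minor copy alone. Cyp4a31 held 4.54%, 2.26% and 3.28% of the joint counts of Cyp4a31 and Cyp4a10 in sham and 20.9%, 6.78% and 9.21% in VSG livers. Every VSG share lay above every sham share, with means of 3.36% ± 1.14 in sham and 12.3% ± 7.56 in VSG livers (SD, n = 3). Cyp4a32 held 3.51%, 2.19% and 2.86% of the counts shared with Cyp4a10 in sham and 26.9%, 3.49% and 7.90% in VSG livers, where VSG 5 fell within the sham range. The exact two-sided permutation p was 0.1 for Cyp4a31, the smallest possible with 3 against 3, and 0.2 for Cyp4a32. Over the 4 shares tested the Benjamini-Hochberg values of these exact tests were 0.200 and 0.267. Groups without overlap were common here, as 39.7% of all tested genes had them in CPM. Summed over the 3 copies, which removes the division of reads among them, the log2 fold change was -0.93 (edgeR adjusted p = 0.492), and -2.35 without VSG 5 (adjusted p = 0.0739).

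**Figure D2:**
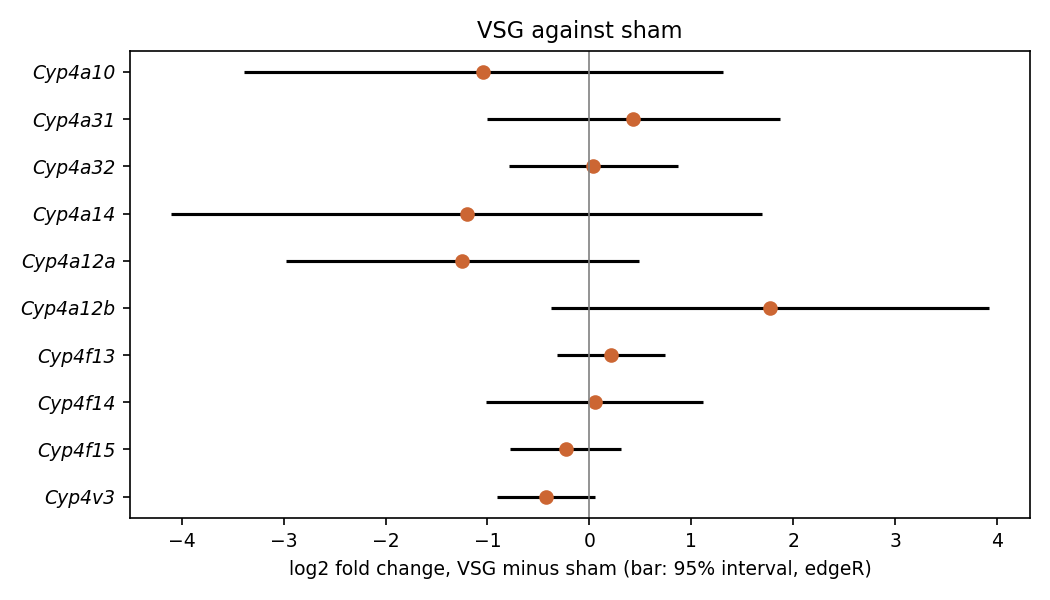
Log2 fold change of VSG over sham livers for the 10 members (points) with 95% intervals from edgeR (bars), and a line at 0. Every interval includes 0, and the widest is that of Cyp4a14, -4.10 to 1.69, against -0.32 to 0.74 for Cyp4f13.

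Cyp4a12a and Cyp4a12b, the male-biased arachidonic acid hydroxylases, had fold changes of opposite sign. Cyp4a12a was at 27.8, 125 and 64.1 CPM in sham and at 7.83, 47.2 and 36.2 CPM in VSG livers. VSG 4 lay below all sham livers and the other two VSG livers between sham 1 and sham 3. For Cyp4a12a the log2 fold change was -1.25 (SE 0.73, 95% interval -2.98 to 0.48, edgeR adjusted p = 0.266). Cyp4a12b was at 8.09, 0.914 and 2.13 CPM in sham and at 3.03, 20.9 and 14.4 CPM in VSG livers. VSG 5 and VSG 6 lay above all sham livers, while VSG 4 lay within them. For Cyp4a12b the log2 fold change was 1.77 (SE 0.90, 95% interval -0.37 to 3.92, edgeR adjusted p = 0.213), which without sham 1 became 3.05 (adjusted p = 0.0881). The counts behind it were low, from 20 in sham 2 to 490 in VSG 5.

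The division of counts between the pair did not overlap between the groups, unlike the level of either gene. Cyp4a12b held 22.6%, 0.726% and 3.21% of the joint counts in sham livers and 27.9%, 30.7% and 28.5% in VSG livers. The 3 VSG livers were alike even though their joint counts ran from 240 to 1594, and all lay above the sham livers, among which sham 1 stood far from the other two. The 95% Wilson intervals, which cover counting error only, were 20.0 to 25.3% in sham 1, 0.470 to 1.12% in sham 2 and 22.6 to 33.9% in VSG 4. Those of sham 1 and VSG 4 overlapped, so the gap between the groups was within counting error there. Groups without overlap were also seen for the Cyp4a31 share, and in CPM for 39.7% of all tested genes. The means were 8.83% ± 11.9 in sham and 29.04% ± 1.497 in VSG livers (SD, n = 3). The exact two-sided permutation p was 0.1, the smallest that 3 against 3 allows, with a Benjamini-Hochberg value of 0.200 over the 4 shares of this exact test. Since 48.9% of the 50-base stretches of Cyp4a12a also occur in Cyp4a12b, the part that read assignment plays in these shares was not tested. The summed pair had a log2 fold change of -0.81 (edgeR adjusted p = 0.431), or -0.24 without sham 2.

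**Figure D3:**
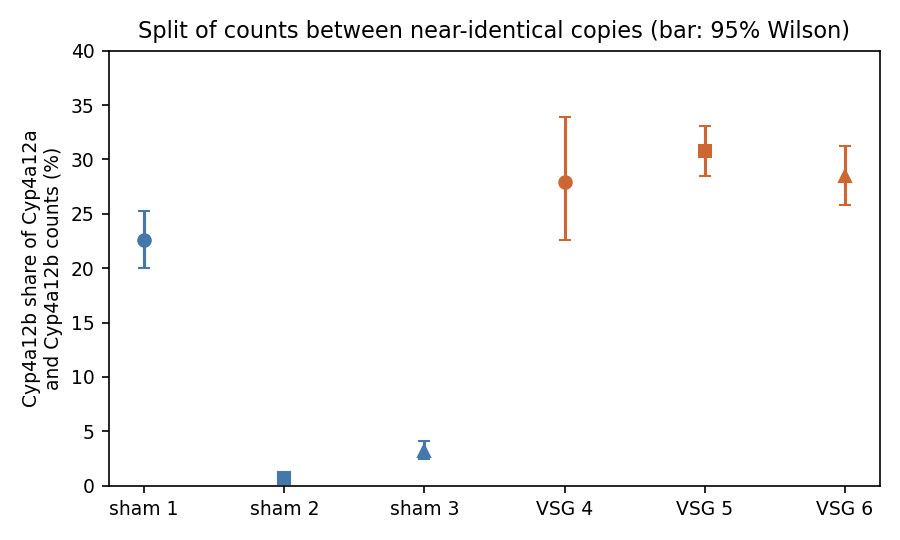
Share of Cyp4a12b in the joint counts of Cyp4a12a and Cyp4a12b in each library, in percent, with 95% Wilson intervals as bars. The 3 VSG livers lie near 29.04%, and the sham livers lie at 22.6%, 0.726% and 3.21%.

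The Cyp4f genes, whose best known substrates are leukotrienes, gave no call. Cyp4f13 and Cyp4f15 varied less among animals than any Cyp4a gene, with an SD of log2 CPM within groups of 0.33 and 0.34 against 0.54 to 2.09, whereas Cyp4f14 at 0.70 lay within the range of the Cyp4a genes. Cyp4f14, the leukotriene B4 omega-hydroxylase, was at 65.8, 149 and 56.0 CPM in sham and at 54.6, 128 and 97.1 CPM in VSG livers. All VSG values but that of VSG 4 fell inside the sham range, and the log2 fold change was 0.050 (SE 0.45, 95% interval -1.01 to 1.11, edgeR adjusted p = 0.946). Its sign turned with total counts (-0.032), on the log2(FPKM + 1) scale (-0.032) and without sham 1, sham 3 or VSG 5. Cyp4f15 was at 115, 148 and 109 CPM in sham and at 76.8, 137 and 103 CPM in VSG livers. VSG 4 and VSG 6 lay below the sham livers and VSG 5 within them, and the log2 fold change was -0.23 (SE 0.23, 95% interval -0.78 to 0.31, edgeR adjusted p = 0.497). Without VSG 5 it was -0.48. Cyp4f13 was at 37.5, 49.9 and 39.0 CPM in sham and at 38.7, 65.5 and 42.1 CPM in VSG livers, with VSG 5 above the rest, and the log2 fold change was 0.21 (SE 0.22, 95% interval -0.32 to 0.74, edgeR adjusted p = 0.528). Without VSG 5 it was -0.080.

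Per unit of length, the 3 Cyp4f genes together were at 85.9, 138 and 79.7 FPKM in sham and at 65.0, 128 and 94.6 FPKM in VSG livers. The 6 Cyp4a genes together were at 385, 1527 and 691 FPKM in sham and at 43.7, 979 and 213 FPKM in VSG livers. In VSG 4 the summed level of the Cyp4a genes was thus below that of the Cyp4f genes, while in the other 5 livers it was above it.

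Cyp4v3 had the narrowest spread of the 10. It was at 375, 491 and 411 CPM in sham and at 242, 328 and 379 CPM in VSG livers. VSG 4 and VSG 5 lay below all sham livers and VSG 6 within them by a small margin. For Cyp4v3 the log2 fold change was -0.43 (SE 0.20, 95% interval -0.91 to 0.053, edgeR adjusted p = 0.186). This was the smallest adjusted p among the members, and it ranged from 0.0607 to 0.387 over the alternatives.

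Of the 10 other Cyp4 genes that were listed, 6 were too low to be tested and 0 of the remaining 4 passed by edgeR, with 1 at an unadjusted p under 0.05 and 0 called by DESeq2 or limma-voom. Cyp4b1, which metabolises short fatty acids and xenobiotics, was at 13.0, 16.7 and 15.8 CPM in sham and at 21.1, 22.1 and 16.5 CPM in VSG livers, with a log2 fold change of 0.40, adjusted p = 0.129 by edgeR. Cyp4f17 (log2 fold change 0.32), Cyp4f16 (0.64) and Cyp4f18 (0.019) also overlapped between groups, and the sign of Cyp4f18 turned with total counts (-0.17).

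Most members ranked the animals alike. The order VSG 4 below 6 below 5, seen first in Cyp4a14 and counted after its values were known, was found in 9 of 10 members and in 22.2% of all tested genes, the exception being Cyp4v3. The order sham 1 below 3 below 2 was found in 7 of 10 members and in 25.9% of all tested genes. Both orders were found in 6 of 10 members and in 9.93% of all tested genes. Cyp4a12b ran the other way in sham livers, highest in sham 1 and lowest in sham 2. Members are not independent of each other, as near-identical copies may share reads.

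Enzymes that act after omega hydroxylation were lower after VSG in part. Of 24 such genes, all tested, 6 fell and 0 rose, where 7.87% of all tested genes fell and 6.79% rose. Aldh3a2, the fatty aldehyde dehydrogenase, fell from 1123, 1429 and 1513 CPM to 109.9, 284 and 213 CPM (log2 fold change -2.74, adjusted p = 0.0101 by edgeR). Acot4, the peroxisomal thioesterase that cleaves succinyl-CoA and other dicarboxylic acyl-CoAs, fell from 134, 343 and 213 CPM to 28.7, 49.4 and 37.2 CPM (log2 fold change -2.58, adjusted p = 0.0127 by edgeR). In both genes all VSG livers lay below all sham livers, which the Cyp4 members did not show. Crat, the carnitine acetyltransferase (log2 fold change -1.40, adjusted p = 0.0133 by edgeR), fell too. The median log2 fold change of the 24 was -0.73, against 0.028 over all tested genes. The VSG order 4 below 6 below 5 was found in 20 of the 24. The count of 6 became 0 without sham 3 and without VSG 6, when the calls over all genes dropped to 159 and 210, and 11 without VSG 5.

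Electrons reach CYP4 enzymes through P450 reductase, with cytochrome b5 as a second donor. Of 4 genes of this supply 1 fell, Cyb5r3, the reductase of cytochrome b5, from 379, 454 and 457 CPM to 149, 222 and 179 CPM (log2 fold change -1.23, adjusted p = 0.0130 by edgeR). Por, the P450 reductase itself, was at 279.6, 545 and 331 CPM in sham and at 189, 281 and 215 CPM in VSG livers and did not pass (log2 fold change -0.76, adjusted p = 0.115 by edgeR), nor did Cyb5a (log2 fold change -0.73, adjusted p = 0.109) or Cyb5b (log2 fold change -0.80, adjusted p = 0.0833). In Por and Cyb5a the group of VSG livers reached into that of the sham livers. DESeq2 called all 4 genes lower. Over all genes edgeR called 7.87% lower, and DESeq2 called 22.7% in either direction. The call of Cyb5r3 was lost without sham 3 and without VSG 6.

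PPARα, its partners and its other targets gave 8 lower and 0 higher genes of 22 tested, against 7.87% lower and 6.79% higher over all tested genes, with a median log2 fold change of -0.81 against 0.028. Acot2, a mitochondrial thioesterase, fell from 26.6, 34.7 and 33.0 CPM to 3.57, 5.17 and 3.20 CPM (log2 fold change -2.98, adjusted p = 0.00197 by edgeR). Plin2, the lipid droplet coat protein (log2 fold change -1.47, adjusted p = 0.00635 by edgeR), Pex11a, a peroxisome division factor (log2 fold change -2.26, adjusted p = 0.0115), and Pdk4, the kinase that shuts pyruvate dehydrogenase (log2 fold change -2.28, adjusted p = 0.0142), fell as well. Ppargc1a, a PPARα coactivator, fell (log2 fold change -0.79, adjusted p = 0.0371 by edgeR), a call lost without sham 2, sham 3, VSG 4 or VSG 6 (adjusted p up to 0.131). Ppara itself was at 188, 285 and 276 CPM in sham and at 68.8, 195 and 179 CPM in VSG livers, with VSG 4 lowest, and did not pass (log2 fold change -0.76, adjusted p = 0.217 by edgeR). Rxra, which encodes the partner of PPARα, had a log2 fold change of 0.10 (adjusted p = 0.689), which turned to -0.027 with total counts. The VSG order 4 below 6 below 5 was found in 16 of the 22 and the sham order 1 below 3 below 2 in 18. The count of 8 was 2 without sham 3 or VSG 6, 4 without sham 2 and 5 without VSG 4.

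**Figure D4:**
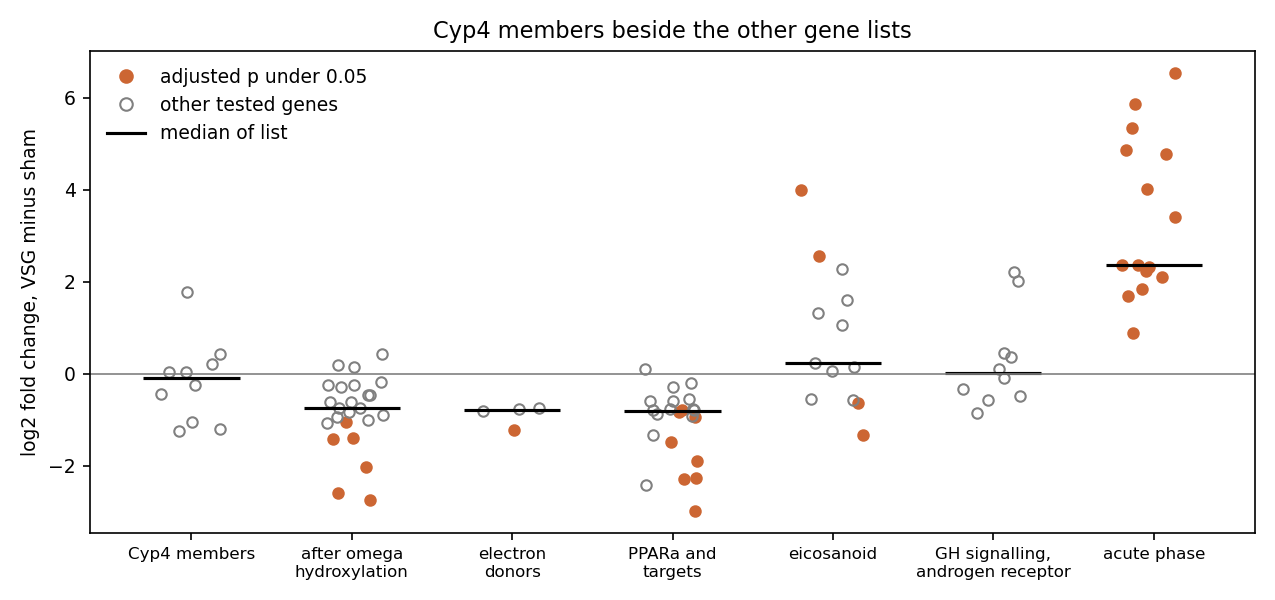
Log2 fold change of VSG over sham livers for each tested gene of 7 lists, with filled points for an edgeR adjusted p under 0.05, open points for other genes and a bar at the median of each list. None of the 10 Cyp4 members is filled, whereas 6 of 24 genes after omega hydroxylation, 8 of 22 PPARα-related genes and 15 of 15 acute phase genes are.

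Among enzymes and receptors of eicosanoids, the products of arachidonic acid, 2 of 13 tested genes rose and 2 fell, beside 6.79% and 7.87% of all tested genes. Ephx1, the microsomal epoxide hydrolase, fell from 539, 517 and 567 CPM to 184, 256 and 209.7 CPM (log2 fold change -1.32, adjusted p = 0.00809 by edgeR), and Cyp2j6, an epoxygenase, fell with a log2 fold change of -0.62 (adjusted p = 0.0473). The call of Cyp2j6 was lost in 7 of 13 alternatives, with limma-voom and when any 1 of the 6 libraries was left out, with an adjusted p of up to 0.136, and that of Ephx1 without sham 3 and without VSG 6. The 2 that rose were Alox5, which starts leukotriene synthesis (log2 fold change 3.999, adjusted p = 0.0342 by edgeR), and Ltb4r1, the leukotriene B4 receptor (log2 fold change 2.57, adjusted p = 0.0369). Both are outside the naming rule and were named after their values were seen, and their highest values were 5.66 and 4.89 CPM. Alox5, with 9, 2 and 2 counts in sham livers, passed the low-count filter only through the VSG livers and could only be called higher. DESeq2 called 8 genes of this list, where it called 22.7% of all genes it tested. Limma-voom called 1 and limma on log2(FPKM + 1) 2, and neither Alox5 nor Ltb4r1 was among these. Alox5 and Ltb4r1 are known from neutrophils, and they were highest in VSG 4 and lowest among VSG livers in VSG 5.

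Because Cyp4a12a and Cyp4a12b are male-biased, other sex-biased liver genes were set beside them. Of 12 male-biased genes 3 rose (Serpina1e, C6 and Gstp1) and 0 fell by edgeR, where 6.79% of all tested genes rose and 7.87% fell. Of the 12 log2 fold changes 10 were positive and 2 negative, the lowest at -1.28. Serpina1e, a protease inhibitor, went from 90.3, 242 and 23.0 CPM to 4487, 6972 and 7259 CPM (log2 fold change 5.72, adjusted p = 0.0154 by edgeR). Hsd3b5, a steroid dehydrogenase, was at 0.0739, 0.685 and 0.0380 CPM in sham and at 0.0905, 38.6 and 35.3 CPM in VSG livers. VSG 4 thus stood with the sham livers, as it did for the level of Cyp4a12b. The log2 fold change of Hsd3b5 was 6.62 (adjusted p = 0.0539 by edgeR). Over the 12 alternatives that tested Hsd3b5 it ran from 2.86 to 8.65, and the gene passed the threshold in 4. The call of Serpina1e was lost without VSG 6, that of Gstp1 without sham 3 and that of C6 in both of these cases. Of 12 female-biased genes 7 were too low to be tested. Of the 5 tested 3 fell (Cyp2b9, Cyp2b13 and Cyp2a4), Cyp2b9 from 73.5, 333 and 293 CPM to 3.03, 3.38 and 1.62 CPM (log2 fold change -6.44, adjusted p = 0.00656 by edgeR). Cyp2b13 and Cyp2a4 (3, 3 and 0 counts in VSG livers) passed the low-count filter only through the sham livers, so they could only be called lower. The other 2 tested genes were not called, and Cyp17a1 had a positive value (log2 fold change 0.72, adjusted p = 0.453 by edgeR). Limma-voom called 1 of the 5, and lower calls made up 7.87% of all tested genes by edgeR. The call of Cyp2b13, with 0 counts in all VSG livers, was lost in 4 alternatives (limma-voom and without sham 2, sham 3 or VSG 6) and that of Cyp2a4 in 2 (limma-voom and without VSG 6). Growth hormone signalling and the androgen receptor gave 0 calls of 10 by edgeR, with 2 at an unadjusted p under 0.05 and 2 called by DESeq2, against shares of 14.7% by edgeR and 22.7% by DESeq2 over all genes. Those with the smallest p were Socs2 and Cish, STAT5 response genes that restrain growth hormone signalling. Socs2 was at 4.58, 5.62 and 3.65 CPM in sham and at 28.3, 22.4 and 5.58 CPM in VSG livers, with a log2 fold change of 2.03 (edgeR adjusted p = 0.0540), and Cish was at 5.91, 5.16 and 3.42 CPM in sham and at 42.7, 19.8 and 5.25 CPM in VSG livers, with a log2 fold change of 2.22 (edgeR adjusted p = 0.0735). Both were higher in VSG 4 and VSG 5 than in all sham livers, with VSG 6 within the sham range, and both had positive values under all 13 alternatives and passed the threshold in 3 (DESeq2, no filter on low counts and without VSG 6). Ghr, the growth hormone receptor, had a log2 fold change of -0.57 (adjusted p = 0.243) and Stat5b, its signal carrier, one of -0.087 (adjusted p = 0.508).

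Acute phase genes and neutrophil markers moved with the VSG group and ran against the members among its animals. All 15 acute phase genes rose, with summed levels of 16758, 16021 and 15252 CPM in sham and 118764, 58586 and 99914 CPM in VSG 4, 5 and 6. All 10 neutrophil markers rose, from a summed 14.8, 2.79 and 4.63 CPM in sham to 1852, 151 and 855 CPM in VSG livers, of which limma-voom called 3. Some of them, such as Elane (6, 2 and 2 counts in sham) and Ctsg (4, 1 and 0), passed the low-count filter only through the VSG livers. Such genes could only be called higher. The VSG livers thus ranked 5 below 6 below 4 in 14 of 15 acute phase genes and in 10 of 10 neutrophil markers, against 24.9% of all tested genes and 0 of the 10 Cyp4 members. VSG 4, the liver with the lowest Cyp4a14 and Cyp4a10, had the highest sums, and VSG 5, the liver with the highest Cyp4a14 and Cyp4a10 of its group, had the lowest. The part of these in the Cyp4 values was not tested. Among sham livers the neutrophil sum was highest in sham 1 and lowest in sham 2, the reverse of Cyp4a14 and Cyp4a10, but these sums were small. The acute phase sum was lowest in sham 3 and did not run in that reverse order. Of 10 macrophage markers 4 rose, with summed levels of 859, 416 and 609.9 CPM in sham and 2296, 808 and 1448 CPM in VSG livers. Endothelial and lymphocyte markers gave 0 calls of 5 and 0 of 6 by edgeR and by DESeq2, with 0 at an unadjusted p under 0.05, and bile duct markers 1 higher of 5. Of 6 stellate cell markers 1 fell by edgeR, while 5 were at an unadjusted p under 0.05 and 5 were called by DESeq2, with a median log2 fold change of -1.11 and 6 of 6 values negative. Over all tested genes edgeR called 6.79% higher and 7.87% lower, and DESeq2 called 22.7% in either direction. The acute phase count of 15 was 1 without sham 3, 5 without VSG 6 and 9 without sham 2.

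The genes whose pattern over the 6 livers lay closest to 3 of the members were picked by the root mean square distance of log2 CPM, centred per gene, among 9955 genes with a mean of at least 5 CPM. Nearest to Cyp4a12a was Nr1i3, the xenobiotic receptor CAR, at a distance of 0.11. Nr1i3 was at 181, 686 and 389 CPM in sham and at 44.3, 256 and 238 CPM in VSG livers, and so followed the order and the spread of Cyp4a12a in every library. The next were Bmp10 at 0.32 and Kcnk5, a potassium channel, at 0.35. The genes nearest to Cyp4a14 lay further away, with Ces1f, a carboxylesterase, at 0.65, Inmt, a methyltransferase, at 0.71 and Slc17a8, a glutamate transporter, at 0.72, whereas the member Cyp4a10 lay at 0.41 from it. Nearest to Cyp4f14 were Hacl1, a peroxisomal lyase of fatty acid alpha oxidation, at 0.18, Tm7sf2, a sterol reductase, at 0.20 and Slc22a30, an organic anion transporter, at 0.22. The smallest edgeR adjusted p among these 9 genes was 0.0816, for Slc17a8. Slc17a8 passed the threshold in 4 of 13 alternatives (DESeq2, limma on log2(FPKM + 1), no filter on low counts and without VSG 5), with a lowest adjusted p of 0.0329. Ces1f and Inmt passed in 1 each, without VSG 5, with an adjusted p of 0.0206 and 0.00896. The distances rest on 6 libraries and are a description.

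**Figure D5:**
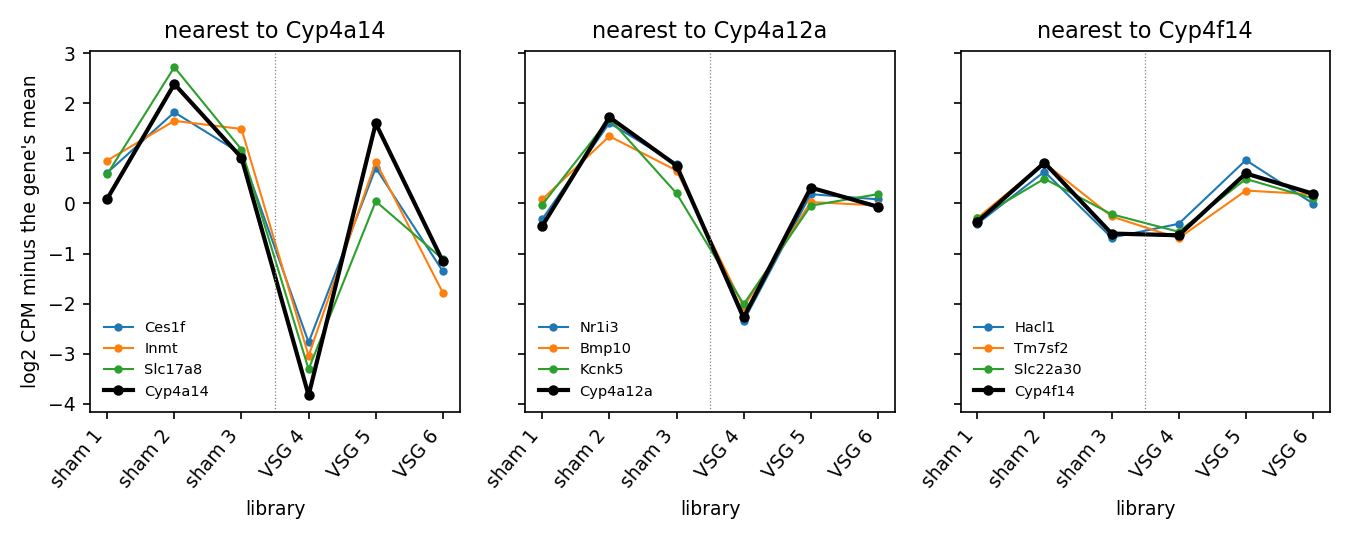
Log2 CPM minus the gene's mean over the 6 libraries, for Cyp4a14, Cyp4a12a and Cyp4f14 (black) and the 3 genes nearest to each (colours), with a dotted line between sham and VSG livers. Nr1i3 lies almost on Cyp4a12a at a distance of 0.11, and VSG 4 is the lowest point for Cyp4a14 and Cyp4a12a.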

How the data were processed

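Counts per gene were used as deposited. Per the study's methods, with versions from the submitters' processing notes, the authors made strand-specific poly(A) libraries, checked reads with FastQC 0.10.1, aligned them with STAR 2.6.0 to mm10 and counted reads per gene with featureCounts 2.0.3, and used DESeq2 for their own comparison. The methods name an earlier featureCounts release than the notes do. Which annotation release and strand option they used, and what became of reads matching several genes, are not given in the sources used here. The deposited exon length of each gene, which is no measurement of a sample, entered only FPKM. Identifiers were matched to GENCODE M21 (55144 of 55385 genes). The groups are those of the sample titles.

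Low genes were removed with filterByExpr at a minimum count of 10 and a minimum total of 15, and libraries were scaled with TMM factors (0.897 to 1.15) and genes tested with edgeR 4.0.16 in R 4.3.3 (glmQLFit and glmQLFTest, group as the only term). Benjamini-Hochberg adjustment ran over all 14454 tested genes. This test gave the fold changes and adjusted p-values wherever the text names no other tool, and the scripts were tested on simulated data. Shares of counts were compared by exact two-sided permutation over libraries, with Wilson intervals that cover counting error only. Coding sequences were aligned with MAFFT 7.526.

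Alternatives were DESeq2 1.42.0, limma-voom (limma 3.58.1), limma on log2(FPKM + 1), RLE factors, total counts, no filter beyond 1 count in all, at least 10 counts in every library, and leaving out each library in turn. The members and lists were chosen with earlier results of these data known. Named were all members, the tested other Cyp4 genes, from each list up to 4 genes with the smallest p and a mean of at least 5 CPM, 8 fixed regulators and, for 3 members, the 3 nearest genes; not every named gene is described, and 1 is not reported here. Per the labels each library came from the liver of a mouse, and the strain is that of the study's methods.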

Additional observations from a re-analysis of the deposited data

How the results depend on the processing

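None of the 10 members passed the threshold under any of the 13 alternatives (7 of tools, scaling and filters and 6 that left out 1 library), and the signs of Cyp4a10, Cyp4a14, Cyp4a12a, Cyp4a12b, Cyp4f15 and Cyp4v3 held in all 13. No paired analysis was possible because the sample numbers 1 to 3 and 4 to 6 are not shared between groups. Depth limited Cyp4a12b most, with 20 counts in sham 2, while Cyp4a14 and Cyp4a10 had 711 or more in every library. The causes of the changes below were not tested.

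Over all genes the test called 2118 (981 higher and 1137 lower). DESeq2 called 3288 (1516 and 1772). With total counts the split was 486 higher and 1512 lower, and on the log2(FPKM + 1) scale 407 and 1530. Total counts moved the median log2 fold change of all genes from 0.028 to -0.11, and the values of Cyp4a32 and Cyp4f14 under it lay above that median. Leaving out 1 library gave 159 to 2732 calls, 48 to 1310 higher and 111 to 1422 lower. Counts for the lists were recomputed after they had been seen. For steps after omega hydroxylation 6 genes became 12 with DESeq2 and 10 both with total counts and on the FPKM scale, with 0 to 11 when 1 library was left out. For PPARα and its targets 8 became 15, 13 and 13 in the same order, with 2 to 10. For acute phase genes leaving out 1 library gave 1 to 15. The summed counts of Cyp4a10, Cyp4a31 and Cyp4a32 (-0.93) had the other sign when Cyp4a31 (0.43) or Cyp4a32 (0.037) was counted alone, as did those of Cyp4a12a and Cyp4a12b (-0.81) for Cyp4a12b alone (1.77). Leaving out 1 library kept the first sum between -2.35 and -0.41 and the second between -1.32 and -0.24.

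Among named genes the sign turned on the FPKM scale for Cyp4a31 (-0.043), Cyp4a32 (-0.12), Cyp4f14 (-0.032), Rxra (-0.039), Cyp4f18 (-0.069) and Slc22a30 (-0.11), and with total counts for Cyp4a32 (-0.066), Cyp4f14 (-0.032), Rxra (-0.027), Cyp4f18 (-0.17) and Slc22a30 (-0.072). Cyp4f18 also turned with limma-voom (-0.0022) and without the filter (-0.018). When 1 library was left out, it turned for Cyp4a31 (-0.57 to 0.86), Cyp4a32 (-0.37 to 0.28), Cyp4f13 (-0.080 to 0.35), Cyp4f14 (-0.27 to 0.61), Cyp4f18 (-0.32 to 0.42), Cyp17a1 (-0.17 to 1.11), Rxra (-0.031 to 0.20), Hacl1 (-0.17 to 0.79), Tm7sf2 (-0.40 to 0.25) and Slc22a30 (-0.25 to 0.33), with the lowest and highest value given. Leaving out VSG 5 turned 7 of these 10.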
